A study of Mus musculus with 62 samples.

Results

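The 10 genes described here were Nfe2l2, which encodes the transcription factor NRF2, and 9 genes of oxidant defence and detoxification in mouse liver. These were the redox enzymes Nqo1, Srxn1 and Txnrd1, the alpha-class glutathione transferases Gsta1, Gsta2 and Gsta4, the mu-class transferases Gstm1 and Gstm3, and the aldo-keto reductase Akr1b8. They were taken by name from the 56884 gene IDs of the count table. All 10 had a row, and all 10 were among the 16087 genes that passed the filter on low counts. Levels are given as CPM, a gene's share of a library's counts after scaling of the libraries, which is not corrected for gene length.

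NRF2 is held in the cytoplasm by KEAP1, which marks it for destruction. Oxidants and electrophiles modify KEAP1, and NRF2 then builds up, enters the nucleus and, paired with a small MAF protein, binds antioxidant response elements near its targets. The targets make and recycle glutathione, reduce quinones and oxidised thiols, and join glutathione to reactive compounds so that they can leave the cell. In liver several transferases are also induced by the xenobiotic receptors CAR and PXR, so that their messages are not read by NRF2 alone.

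Livers came from C57BL/6J males, a common inbred strain. They were fed a Western diet (WD), in which fat gave 42% of the calories, carbohydrate 42.7% and protein 15.2%, for 12 weeks from the age of 5 weeks, and at 17 weeks had a sleeve gastrectomy (SG), which took away about 75% of the stomach, or a sham operation. From day 7 after surgery they ate WD again or a diet with 20% of calories from fat and 36%, 21% or 7% from protein (P36, P21 and P7), and liver was taken 14 weeks after surgery, after 16 h without food and 4 h of refeeding. The groups with counts were sham WD (8 libraries), SG WD (8), sham P36 (5), SG P36 (4), sham P21 (7), SG P21 (6), sham P7 (7), SG P7 (7), sham chow (4) and SG chow (1, described and not tested). The make-up of the chow, and any WD that the chow mice ate before surgery, are not given separately in the sources used here. WD and P21 differ in fat as well as in protein, so that the nutrients cannot be told apart in that comparison. P36, P21 and P7 share 20% of calories from fat, so that the calories left for carbohydrate rose as protein fell. Protein and carbohydrate cannot be told apart among these diets, nor in a slope over them. Mice were housed in pairs, and the cage mates are not named in the labels.

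Libraries held 6993848 to 34008320 counts. In whole liver fewer cells of a type and less RNA per cell cannot be told apart. The 6 hepatocyte markers summed to 44366 CPM or more in every library, so that the tissue label held. By the correlation of log2 CPM over all tested genes, 2 of 56 libraries lay nearer another diet than their own by more than 0.01. Library 7 of SG P7 was nearest the sham chow mean (r = 0.989, against 0.974 with the nearer of the sham P7 and SG P7 means). Its level of Cyp2b10, a target of the receptor CAR, was 25.3 CPM, against 13.2 to 26.6 in sham chow and at most 0.569 in the other SG P7 libraries. Library 3 of sham WD was nearest the sham P21 mean (0.982, against 0.967 with the nearer of the sham WD and SG WD means). Library 1 of SG P36 had 1093 CPM of Hmox1, the heme oxygenase induced by NRF2 and by heme, against 16.4 to 42.1 CPM in the other SG P36 libraries. All 3 kept their labels, and whether the labels of SG P7 library 7 and sham WD library 3 are right was not tested.

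The RefSeq promoter windows of Gsta1, Gsta2 and Gsta13 are printed because the 3 genes are close relatives whose levels are compared in the results. They run from 250 bases before to 50 bases after each start on GRCm38.p6. Their positions on chromosome 9 are chr9:78230419-78230718 (Gsta1, plus strand), chr9:78347096-78347395 (Gsta2, minus strand) and chr9:78256879-78257178 (Gsta13, plus strand, entered in that RefSeq table as Gm3776). Capitals mark bases with no identical partner in the alignment, with Gsta2 for the line of Gsta1, and with Gsta1 for the other lines.
Gsta1: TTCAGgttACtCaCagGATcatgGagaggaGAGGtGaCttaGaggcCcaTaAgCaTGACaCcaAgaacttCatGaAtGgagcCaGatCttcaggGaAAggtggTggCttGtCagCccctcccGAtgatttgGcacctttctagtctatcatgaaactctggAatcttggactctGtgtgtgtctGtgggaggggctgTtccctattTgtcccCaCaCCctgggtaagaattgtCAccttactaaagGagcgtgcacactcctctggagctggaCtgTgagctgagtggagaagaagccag
Gsta2: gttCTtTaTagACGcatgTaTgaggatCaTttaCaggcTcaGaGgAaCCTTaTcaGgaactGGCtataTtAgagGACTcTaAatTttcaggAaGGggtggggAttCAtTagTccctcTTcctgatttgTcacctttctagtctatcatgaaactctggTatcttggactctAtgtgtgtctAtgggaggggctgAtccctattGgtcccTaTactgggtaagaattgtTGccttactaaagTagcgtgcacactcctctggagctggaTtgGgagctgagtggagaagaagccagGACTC
Gsta13: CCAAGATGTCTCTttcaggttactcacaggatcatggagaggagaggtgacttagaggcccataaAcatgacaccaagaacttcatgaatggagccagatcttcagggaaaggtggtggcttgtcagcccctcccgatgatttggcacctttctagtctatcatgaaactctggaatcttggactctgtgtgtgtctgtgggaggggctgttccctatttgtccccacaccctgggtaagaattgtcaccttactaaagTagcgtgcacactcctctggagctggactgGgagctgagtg
Gsta13 matched Gsta1 at 284 of 300 bases (94.7%) and Gsta2 matched it at 238 of 300 (79.3%). Bases beyond the end of the other window counted as unmatched. The run of capitals that opens the Gsta13 line is of this kind, as it stands before the first base of the Gsta1 window. The promoter windows say nothing of how reads were assigned to the genes. For that the transcripts count: of the 150-base stretches of the Gsta1 transcript in the GRCm38 annotation, 62.4% also stood in Gsta13 and 73.7% in at least 1 other gene. For Gsta2 26.8% stood in another gene, most of them in the predicted gene Gm10639 (15.4%), and for Gstm3 3.44%. The other 7 members had no such stretch. Counts of Gsta1 and Gsta13 are therefore uncertain as a split, and the level of Gsta1 followed that of Gsta13 closely (Pearson's r of log2 CPM 0.97 over 56 libraries, 0.95 after the group means were taken out). The sum of both is given beside Gsta1 where it matters.

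The core of the antioxidant response element, TGACNNNGC on either strand, stood in the windows of 3 of the 9 members that have one in the RefSeq table (12 windows in all, as genes with several starts have several) and in 12.4% of all 32851 windows. No other motif was searched. The windows with a match are printed because they belong to the regulator and to 2 of its textbook targets, with the match in capitals. They are Nfe2l2 at chr2:75704614-75704913 (minus strand), Srxn1 at chr2:152105274-152105573 (plus strand) and, of 3 windows of Txnrd1, that at chr10:82858956-82859255 (plus strand). In Srxn1 and Txnrd1 the match was on the opposite strand, so that the capitals show its reverse complement.
Nfe2l2: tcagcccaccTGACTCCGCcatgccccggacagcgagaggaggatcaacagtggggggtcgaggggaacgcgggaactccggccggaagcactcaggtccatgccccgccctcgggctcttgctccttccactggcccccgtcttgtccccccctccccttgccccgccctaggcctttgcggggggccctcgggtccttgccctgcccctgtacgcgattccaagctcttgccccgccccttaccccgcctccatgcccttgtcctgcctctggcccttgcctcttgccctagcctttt
Srxn1: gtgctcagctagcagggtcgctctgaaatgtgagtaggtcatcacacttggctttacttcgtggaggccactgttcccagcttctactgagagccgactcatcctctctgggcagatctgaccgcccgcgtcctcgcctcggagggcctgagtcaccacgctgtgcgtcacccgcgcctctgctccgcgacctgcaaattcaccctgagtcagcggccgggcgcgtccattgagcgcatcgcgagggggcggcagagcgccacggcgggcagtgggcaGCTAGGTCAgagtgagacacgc
Txnrd1: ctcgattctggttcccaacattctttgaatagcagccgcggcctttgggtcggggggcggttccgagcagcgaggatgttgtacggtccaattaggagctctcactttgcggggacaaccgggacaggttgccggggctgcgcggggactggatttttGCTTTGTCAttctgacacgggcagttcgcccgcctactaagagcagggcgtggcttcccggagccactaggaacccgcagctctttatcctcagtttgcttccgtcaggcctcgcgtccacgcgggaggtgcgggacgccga
The windows of Nqo1, Gsta1, Gsta2, Gstm1, Gstm3 and Akr1b8 held no match, which says only that these letters are not in these 300 bases. Gsta4 had no entry.

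Sham mice on P21 were compared with sham mice that stayed on WD. Of the 10 genes, 8 were lower on P21 and 0 were higher, while 17.8% of all tested genes were lower and 14.4% were higher (edgeR's quasi-likelihood test, adjusted p below 0.05 over 16087 genes). The median log2 fold change of the 10 genes was -0.93, against 0.00 for all genes. Txnrd1 and Akr1b8 were the members that did not pass. The heat map shows every fold change of the 10 genes.

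**Figure D1:**
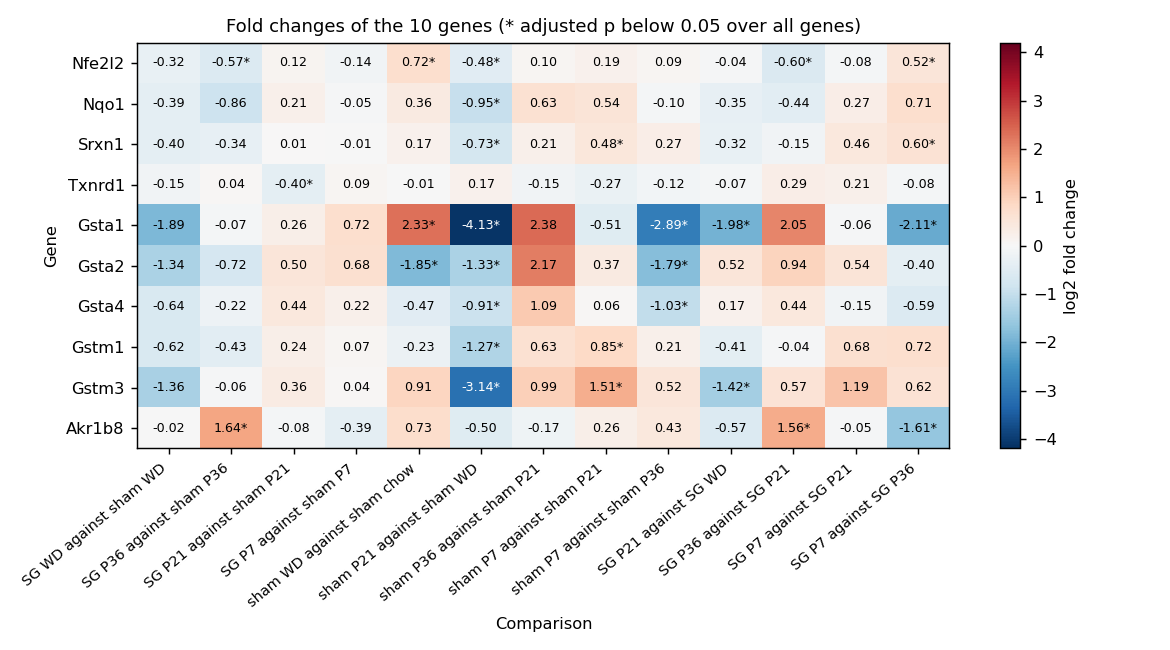
Log2 fold change of each of the 10 genes (rows) in 13 comparisons of 2 groups (columns); blue is lower and red higher in the group named before "against", and a star marks an adjusted p below 0.05 over all genes tested. The deepest blue cells are Gsta1 (-4.13) and Gstm3 (-3.14) for sham P21 against sham WD, and the columns of SG against sham hold 3 stars in all.

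Nfe2l2, the regulator, ranged from 52.8 CPM in an SG P36 library to 160 in a sham WD library. In sham WD its level ran from 81.0 to 160 CPM with a median of 134, and in SG WD from 81.8 to 139 with a median of 99.3. The sham P36 libraries had 91.9, 129, 89.7, 92.7 and 87.2 CPM, and the SG P36 libraries 52.8, 61.3, 78.0 and 71.4. All SG P36 values lay below all sham P36 values. Sham P21 ran from 82.7 to 103 CPM (median 91.5), SG P21 from 82.1 to 117 (98.4), sham P7 from 80.5 to 121 (104) and SG P7 from 78.1 to 107 (96.7). Sham chow had 64.2, 80.2, 80.7 and 85.9 CPM and the SG chow library 62.8.

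By group mean Nfe2l2 stood highest in sham WD and lowest in SG P36, and each group's range overlapped that of its neighbour in this order, as it did for each of the 10 genes. It was higher in sham WD than in sham chow (log2 fold change 0.72 ± 0.14 (SE), edgeR adjusted p = 0.000132) and lower in sham P21 than in sham WD (-0.48 ± 0.12, adjusted p = 0.00149). It was lower after SG on P36 (-0.57 ± 0.16, adjusted p = 0.0334), where 2.22% of all genes passed and Nfe2l2 and Akr1b8 were the members that did. The authors' deposited table gives -0.58 for this comparison, with an adjusted p of 0.0254. SG P36 was also below SG P21 (-0.60 ± 0.15, adjusted p = 0.00831), and SG P7 was above SG P36 (0.52 ± 0.15, adjusted p = 0.00824). The call of SG against sham on P36 was lost without any of sham P36 libraries 2 and 5 and SG P36 libraries 1, 2 and 4, and with a fit of these 2 groups alone or no filter (adjusted p up to 0.162). The call of SG P7 against SG P36 was lost without SG P36 library 1 (0.43, adjusted p = 0.0568).

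**Figure D2:**
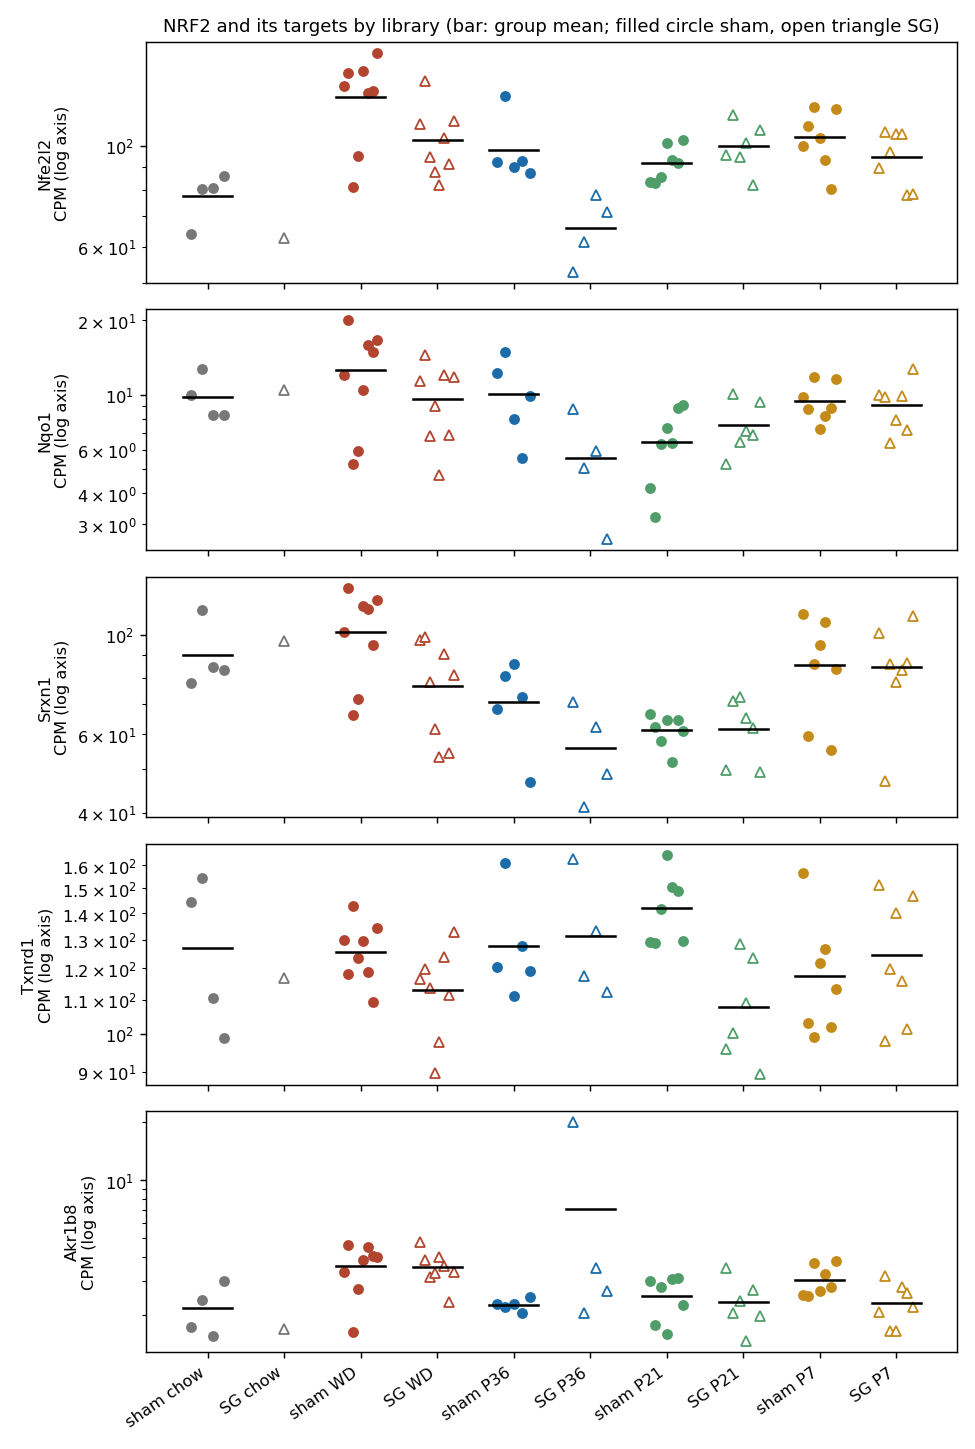
CPM on a log axis of Nfe2l2, Nqo1, Srxn1, Txnrd1 and Akr1b8 (panels from top to bottom) in each of 57 libraries by group; filled circles are sham, open triangles SG, and bars are group means. The 4 SG P36 values of Nfe2l2 lie below the 5 sham P36 values, and a single SG P36 library, at 19.9 CPM, sets the mean of Akr1b8 in its group.

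Nqo1, a quinone reductase, and Srxn1, which repairs overoxidised peroxiredoxins, were highest in sham WD by group mean and lowest in SG P36. Nqo1 averaged 12.6 ± 5.2 CPM (SD, n = 8) in sham WD and 6.47 ± 2.19 (n = 7) in sham P21, with ranges of 5.22 to 19.9 and 3.20 to 9.04 CPM that overlap. It fell by 0.95 ± 0.25 on the log2 scale (adjusted p = 0.00243). Srxn1 averaged 101 ± 22.5 CPM (n = 8) in sham WD and 61.2 ± 4.95 (n = 7) in sham P21. Its sham WD libraries ran from 66.2 to 127 CPM and its sham P21 libraries from 52.0 to 66.6, so that the ranges met only at their edges. It fell by 0.73 ± 0.16 (adjusted p = 0.000547).

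Neither gene passed for sham WD against sham chow (0.36 ± 0.29 for Nqo1, adjusted p = 0.35, and 0.17 ± 0.19 for Srxn1, adjusted p = 0.52). Srxn1 was higher in sham P7 than in sham P21 (0.48 ± 0.17, adjusted p = 0.0279) and higher in SG P7 than in SG P36 (0.60 ± 0.20, adjusted p = 0.0282). The sham P7 libraries ran from 55.2 to 111 CPM with a median of 86.1, and overlapped sham P21. The P7 against P21 call was lost without any of sham P21 libraries 3 to 6 or sham P7 libraries 2, 5 and 6, with voom and without the filter (adjusted p up to 0.11). The SG P7 against SG P36 call was lost without SG P36 library 2 or 4 or SG P7 library 1 or 7, with the 2 groups alone and without the filter (adjusted p up to 0.128).

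Txnrd1, the cytosolic thioredoxin reductase, had another order of groups than the other members. It was the only one of the 10 whose group mean was highest in sham P21, at 142 ± 13.7 CPM (SD, n = 7), and its lowest mean was that of SG P21, at 108 ± 15.5 (n = 6). The sham P21 libraries ran from 129 to 165 CPM (median 142) and the SG P21 libraries from 89.5 to 129 (median 105). The highest SG P21 library was just below the lowest sham P21 library, so the ranges did not overlap. It was lower after SG on P21 (-0.40 ± 0.12, edgeR adjusted p = 0.0281), as the single member called in that comparison, where 8.52% of all genes passed. In the authors' deposited table the log2 fold change is -0.47, with an adjusted p of 0.010. The call was lost without SG P21 library 1, 2 or 7 and without the filter (adjusted p up to 0.0752).

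Gsta1, an alpha-class transferase, had the widest ratio of the highest to the lowest group mean of the 10 genes (51.7 CPM in sham WD and 2.08 in sham P7). Its levels in the 8 sham WD libraries were 32.7, 88.2, 2.87, 10.5, 66.3, 80.6, 63.6 and 69.1 CPM. Libraries 3 and 4 were far below the other 6 of their group. SG WD ran from 0.319 to 36.4 CPM (median 11.2), sham P21 from 1.44 to 6.23 (median 2.21) and SG P21 from 0.957 to 8.26 (median 3.16). The low SG WD values, 0.319 and 0.418 CPM, were those of libraries 5 and 7, and no library of another group was below them.

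Gsta1 in sham P36 was at 11.4, 33.8, 18.0, 5.95 and 8.09 CPM, and in SG P36 at 31.0, 6.19, 9.47 and 12.4. Sham P7 ran from 1.35 to 2.56 CPM (median 2.33) and SG P7 from 0.885 to 15.4 (median 1.57). All sham P7 values lay below all sham P36 values. Sham chow had 5.37, 15.1, 9.25 and 11.5 CPM and the SG chow library 5.68.

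Gsta1 was higher in sham WD than in sham chow (2.33 ± 0.79, adjusted p = 0.0195) and lower in sham P21 than in sham WD (-4.13 ± 0.70, adjusted p = 1.3e-05). It was lower in SG P21 than in SG WD (-1.98 ± 0.69, adjusted p = 0.0259). It was also lower on P7 than on P36 in sham mice (-2.89 ± 0.71, adjusted p = 0.00308) and in SG mice (-2.11 ± 0.73, adjusted p = 0.0339). Summed with Gsta13 the level was 90.3 ± 55.1 CPM (SD, n = 8) in sham WD, 5.80 ± 3.47 (n = 7) in sham P21 and 19.2 ± 8.28 (n = 4) in sham chow, so that these 3 groups stood in the same order as for Gsta1 alone. The WD against chow call was lost without sham chow library 1 or 5 and with voom (adjusted p up to 0.0701). In SG mice the P21 against WD call was lost without SG WD library 1 or 2 or SG P21 library 1 or 3, with voom and with the 2 groups alone (-0.98 to -2.47 over the alternatives), and the P7 against P36 call was lost without SG P36 library 1 or any of SG P7 libraries 1 to 6, with voom and with the 2 groups alone (-1.45 to -3.32).

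**Figure D3:**
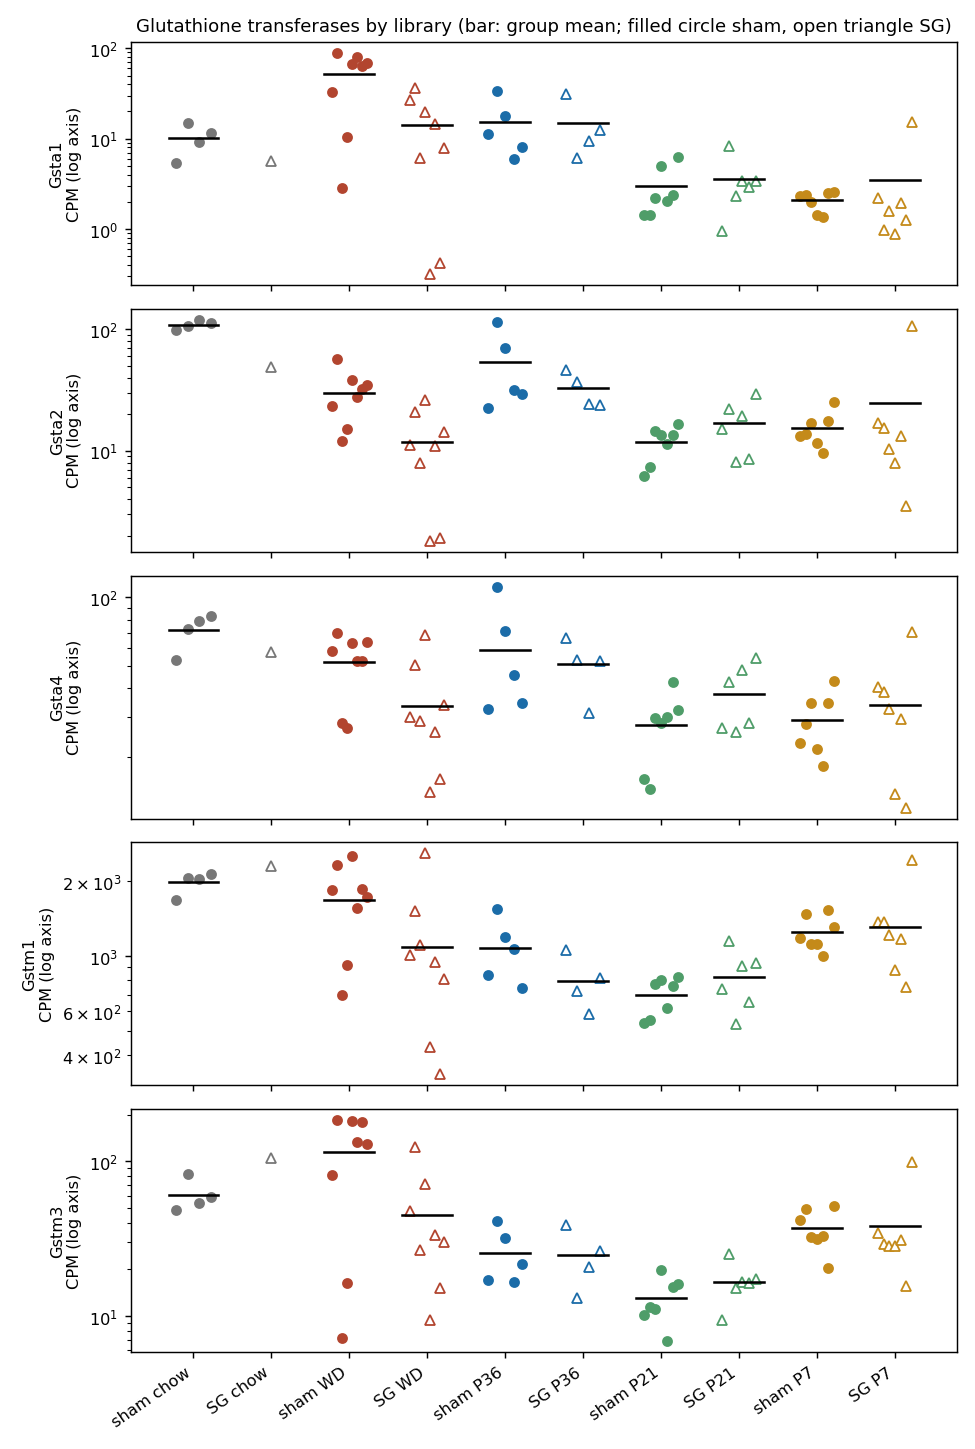
CPM on a log axis of Gsta1, Gsta2, Gsta4, Gstm1 and Gstm3 (panels from top to bottom) in each of 57 libraries by group; filled circles are sham, open triangles SG, and bars are group means. Gsta1 and Gstm3 are high in 6 of 8 sham WD libraries and low on P21, while Gsta2 has its highest group mean in sham chow, with libraries between 97.9 and 119 CPM.

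Gsta2, the close relative of Gsta1, had another order of diets. Its group mean was highest in sham chow, with 97.9, 105, 119 and 111 CPM. Every sham WD library was below that, from 11.9 to 56.5 CPM with a median of 30.0. The sham P36 libraries had 22.3, 115, 70.0, 31.6 and 29.3 CPM, the SG P36 libraries 45.7, 36.9, 24 and 23.6, and the SG chow library 48.8. Sham P21 ran from 6.24 to 16.8 CPM (median 13.5), all below sham P36, and SG P21 from 8.02 to 29.3 (17.1). Sham P7 ran from 9.68 to 25.4 CPM (13.7) and SG P7 from 3.51 to 106 (13.1), where the 106 belonged to library 7 and the next highest was 16.9.

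Gsta2 was thus lower in sham WD than in sham chow (-1.85 ± 0.52, adjusted p = 0.00465), the comparison in which Gsta1 was higher. The 3 members called there were Nfe2l2, Gsta1 and Gsta2, while 31.7% of all genes passed. Without sham WD library 3 and SG P7 library 7 together 5 members passed there, and 5877 of all genes, against 5094 with all libraries. With SG P36 library 1 left out too, 5 members and 6016 of all genes passed. Gsta2 was lower again in sham P21 than in sham WD (-1.33 ± 0.48, adjusted p = 0.0281), and lower in sham P7 than in sham P36 (-1.79 ± 0.52, adjusted p = 0.012). The P21 against WD call was lost without sham WD library 2 or 5 or sham P21 library 1, 2 or 5 (adjusted p up to 0.0801), and the P7 against P36 call without sham P36 library 2 (-1.35, adjusted p = 0.0833). In SG mice P7 against P36 gave -0.40 ± 0.55 (adjusted p = 0.665), and -1.53 with an adjusted p of 0.0138 without SG P7 library 7.

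The transcripts of Gsta1 and Gsta2 are of nearly the same length in the GRCm38 annotation (875 and 870 bases), so that the ratio of their counts can be read. It had a median of 1.65 in sham WD, 0.763 in SG WD, 0.276 in sham P36, 0.460 in SG P36, 0.196 in sham P21, 0.234 in SG P21, 0.139 in sham P7, 0.145 in SG P7 and 0.0906 in sham chow. The median ratio favoured Gsta1 in sham WD and Gsta2 in every other group. In SG WD the ratio ran from 0.175 to 2.39, and the median levels were close, at 11.2 CPM of Gsta1 and 11.1 of Gsta2. The lowest sham WD ratio was 0.240, within the range of sham P21 (0.152 to 0.372). No test was made of this ratio, and the stretches that each gene shares with other genes limit it.

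**Figure D4:**
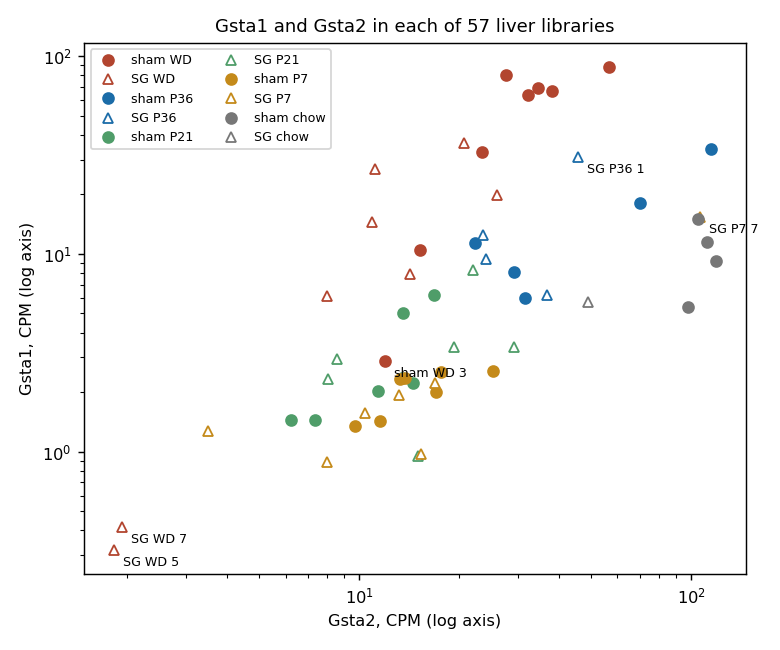
Gsta1 (CPM, log axis, upwards) against Gsta2 (CPM, log axis, to the right) in each of 57 libraries, coloured by diet; filled circles are sham and open triangles SG, and the libraries that stand apart are labelled. Sham chow lies at the right with Gsta2 between 97.9 and 119 CPM, most sham WD libraries at the top, and SG WD libraries 5 and 7 at the lower left.

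Gsta4, which joins glutathione to the lipid peroxidation product 4-hydroxynonenal, followed the levels of Gsta2 (r = 0.90 over 56 libraries) and of Gsta1 (r = 0.74). Its group means ran from 72.1 ± 13.2 CPM (SD, n = 4) in sham chow to 27.7 ± 9.68 (n = 7) in sham P21, with 52.1 ± 16.2 (n = 8) in sham WD and 29.0 ± 8.78 (n = 7) in sham P7. It was lower in sham P21 than in sham WD (-0.91 ± 0.31, adjusted p = 0.0193) and in sham P7 than in sham P36 (-1.03 ± 0.34, adjusted p = 0.0296), and did not pass against chow (-0.47 ± 0.35, adjusted p = 0.316). The sham P36 libraries were spread widely, at 32.4, 111, 71.6, 45.9 and 34.5 CPM. Without sham P21 library 2 the call against WD was lost (adjusted p = 0.0521), and the call of P7 against P36 was lost without sham P36 library 2 or 3 or sham P7 library 6, and with voom (adjusted p up to 0.177).

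Gstm1, an abundant mu-class transferase of hepatocytes, and Gstm3 were both lower in sham P21 than in sham WD. Gstm1 ran from 700 to 2518 CPM (median 1782) in sham WD, from 539 to 823 (761) in sham P21 and from 1000 to 1537 (1185) in sham P7. Sham P7 lay above sham P21 without overlap. Sham chow had 1676, 2057, 2036 and 2134 CPM, the SG chow library 2290, and sham P36 836, 1539, 1197, 1068 and 744. Gstm1 was lower in sham P21 than in sham WD (-1.27 ± 0.27, adjusted p = 0.000265) and higher in sham P7 than in sham P21 (0.85 ± 0.27, adjusted p = 0.0176).

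Gstm3 had 81.9, 184, 7.24, 16.3, 182, 133, 179 and 130 CPM in the sham WD libraries, of which libraries 3 and 4 were again the low ones. It ran from 9.45 to 124 CPM (median 31.7) in SG WD, from 6.90 to 19.8 (11.4) in sham P21, from 9.41 to 25 (16.4) in SG P21 and from 20.5 to 51.1 (33.0) in sham P7. Every sham P7 value was above every sham P21 value. Sham chow had 48.7, 82.7, 53.5 and 58.8 CPM, sham P36 17.1, 40.9, 32, 16.7 and 21.6, SG P36 38.7, 13, 20.8 and 26.4, and the SG chow library 105. SG P7 ran from 15.6 to 99.0 CPM (29.0), with library 7 at the top.

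Gstm3 was lower in sham P21 than in sham WD (-3.14 ± 0.47, adjusted p = 1.64e-06) and in SG P21 than in SG WD (-1.42 ± 0.47, adjusted p = 0.0178). It was higher in sham P7 than in sham P21 (1.51 ± 0.45, adjusted p = 0.0103). With Srxn1 and Gstm1 it made 3 members higher and 0 lower in that comparison, in which 13% of all genes were higher and 13.4% lower. In SG mice, P7 against P21 gave 1.19 ± 0.47 (adjusted p = 0.0992), and 0.74 (adjusted p = 0.331) without SG P7 library 7. The call of SG P21 against SG WD was lost without SG WD library 2 and with voom (adjusted p up to 0.115).

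In the sham WD group the same 2 libraries, 3 and 4, were the lowest of 8 for 9 of the 10 genes. Markers of other cell types moved between sham P21 and sham WD as well. Of 6 macrophage markers 5 were lower on P21, with a summed level of 84.4 to 164 CPM against 125 to 381. Of 6 cholangiocyte markers 3 were lower (40.1 to 65.4 against 34.2 to 589 CPM), and of 6 hepatocyte markers 3 were higher (75620 to 88455 against 44623 to 77956 CPM). Of 6 stellate markers 3 were lower (200 to 331 against 186 to 591 CPM), of 6 erythroid markers 3 were lower (246 to 504 against 379 to 795 CPM), and of 6 endothelial markers 2 were lower and 1 higher (127 to 180 against 112 to 193 CPM). In these groups no marker of the 6 lists was below 0.1 CPM in all libraries. Their part in the fold changes of the 10 genes was not tested.

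After surgery on WD none of the 10 passed edgeR's test, while 2.34% of all genes did. All 10 log2 fold changes of SG against sham were below 0, with a median of -0.51 against 0.02 over all genes. In edgeR's test 7 of 10 had an unadjusted p below 0.05, and so had 2121 of all 16087 genes. DESeq2 called 437 genes, 1 of them a member (Gstm3), and voom 100, 2 of them members (Gsta1 and Gsta2). The values nearest the threshold were those of Gstm3 (-1.36 ± 0.41, adjusted p = 0.0662) and Gsta1 (-1.89 ± 0.59, adjusted p = 0.0737), followed by Gsta2 (-1.34 ± 0.45, adjusted p = 0.115).

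These values on WD turn on single libraries of both groups. Gsta1 and Gstm3 passed without sham WD library 3, without sham WD library 4 or without SG WD library 2, and Gstm3 also without SG WD library 4 (adjusted p from 0.0128 to 0.525 for Gsta1 and from 0.00611 to 0.592 for Gstm3 over all alternatives). SG WD libraries 5 and 7 were the lowest of that group for 6 of the 10 genes. Without them the log2 fold changes were -1.49 for Gsta1 (adjusted p = 0.412) and -1.05 for Gstm3 (adjusted p = 0.531). Nfe2l2 (-0.32 ± 0.11, adjusted p = 0.154) passed without sham WD library 3 or SG WD library 2, and Gsta2 and Gstm1 without SG WD library 4. That last library had the highest marker sums of its group for hepatocytes (92103 CPM), erythroid cells (1682), adipocytes (335) and skeletal muscle (38.0). The part of these sums was not tested. Among the other transferases Gsta13, which shares sequence with Gsta1, was lower after SG on WD (-2.07 ± 0.59, adjusted p = 0.0455), and Mgst2 was higher (3.09 ± 0.67, adjusted p = 0.00391). All 6 neutrophil markers were higher after SG on WD, with a summed level of 17.9 to 1481 CPM against 3.60 to 37.3, and the highest sum was that of SG WD library 5. In sham WD 1 of the 6 was below 0.1 CPM in all libraries. Their part was not tested.

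On the diets with 20% of calories from fat the SG effect did not go in a common direction. The mean over P36, P21 and P7 passed for none of the 10, where 4.49% of all genes passed. For this mean DESeq2 called 988 genes and voom 395, with 0 members among them. In edgeR's test 2 members had an unadjusted p below 0.05, and so had 3138 of all 16087 genes. On P7 alone edgeR called 0 genes of any kind, and no member had an unadjusted p below 0.05, where 681 of 16087 genes had. DESeq2 called 7 genes and voom 1 on P7, none of them a member. The difference between the SG effects on P21 and on WD passed for no member, with 0.124% of all genes called. DESeq2 called 141 genes and voom 9 for it, with 0 members among them. For this difference 6 of 10 had an unadjusted edgeR p below 0.05, and so had 2119 of all 16087 genes. For Gsta2 this difference was 1.85 ± 0.68 (adjusted p = 0.2) and for Gstm3 1.72 ± 0.62 (adjusted p = 0.195), and both passed without sham WD library 3 and SG P7 library 7 together (adjusted p = 0.0497 and 0.0477). On P21, where Txnrd1 was lower after SG, all 6 neutrophil markers were higher, with a summed level of 6.64 to 265 CPM against 2.43 to 12.9, and 1 of the 6 was below 0.1 CPM in all sham P21 libraries. Their part was not tested.

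Akr1b8, an aldo-keto reductase of reactive aldehydes, was low everywhere but in a single library. The SG P36 libraries had 19.9, 2.04, 3.50 and 2.65 CPM and the sham P36 libraries 2.27, 2.19, 2.26, 2.03 and 2.48. Across the other groups it ran from 1.46 to 4.76 CPM. Edges of the 2 P36 groups overlapped, and library 1 set the group apart. The fit gave 1.64 ± 0.35 for SG against sham on P36 (adjusted p = 0.00536), and 0.28 with an adjusted p of 0.759 without SG P36 library 1. The authors' deposited table gives 0.94 and an adjusted p of 0.173.

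The same library carried the other calls of Akr1b8. SG P36 was above SG P21 (1.56 ± 0.33, adjusted p = 0.00216) and SG P7 below SG P36 (-1.61 ± 0.32, adjusted p = 0.000216), and without SG P36 library 1 these were 0.19 (adjusted p = 0.726) and -0.24 (adjusted p = 0.571). In SG P36 against SG P21, 7.69% of all genes passed, and Nfe2l2 was the other member called. In the F test that the SG effect is the same on P36, P21 and P7, Akr1b8 was the member called (adjusted p = 0.0296, and 1.3% of all genes passed), and without that library its adjusted p was 0.414. That call was also lost without SG P21 library 4 or 7 or SG P7 library 7, and with voom. As a single difference, the SG effect on P7 minus that on P36 was -2.04 ± 0.45 (adjusted p = 0.0341, with 0.149% of all genes called and Akr1b8 the member called), and -0.67 (adjusted p = 0.526) without SG P36 library 1. Hmox1 had 1093, 16.4, 23.7 and 42.1 CPM in SG P36 and 14.4, 10.4, 19.1, 14.4 and 15.6 in sham P36. Its log2 fold change of 4.31 ± 0.64 (adjusted p = 6.34e-05) became 0.89 (adjusted p = 0.321) without SG P36 library 1. In that library the erythroid markers summed to 1700 CPM and the macrophage markers to 262. The neutrophil markers summed to 118 CPM there and the adipocyte markers to 110, and each of these sums was the highest of its group. The part of these in the level of Akr1b8 was not tested.

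As a slope over P36, P21 and P7, with sham and SG mice together, 4 members rose with protein and 2 fell, while 14.5% of all genes rose and 16% fell. Gsta1 rose by 0.87 ± 0.17 on the log2 scale per 10 percentage points of protein calories (adjusted p = 0.000108), Gsta2 by 0.39 ± 0.13 (adjusted p = 0.0183) and Gsta4 by 0.28 ± 0.09 (adjusted p = 0.00907). In the step between P7 and P21 none of the 3 passed. There sham P7 against sham P21 gave -0.51 ± 0.69 for Gsta1, 0.37 ± 0.48 for Gsta2 and 0.06 ± 0.31 for Gsta4, and SG P7 against SG P21 -0.06 ± 0.70, 0.54 ± 0.50 and -0.15 ± 0.33. The group means of Gsta2 were lower on P21 than on P7 (11.9 against 15.5 CPM in sham, 17.0 against 24.8 in SG). Without SG P7 library 7 SG P7 against SG P21 gave -0.59 for Gsta2 (adjusted p = 0.416). Nfe2l2 fell by 0.11 ± 0.03 (adjusted p = 0.0144) and Srxn1 fell by 0.15 ± 0.05 (adjusted p = 0.0129). Gstm1 (-0.16 ± 0.08, adjusted p = 0.118), Gstm3 (-0.19 ± 0.12, adjusted p = 0.26), Nqo1 (-0.10 ± 0.07, adjusted p = 0.281) and Txnrd1 (0.03 ± 0.03, adjusted p = 0.434) did not pass. Of 6 erythroid markers 4 rose with protein, with a summed level of 452 to 714 CPM in sham P36 and 446 to 1700 in SG P36, against 259 to 820 in sham P7 and 238 to 495 in SG P7. Of 4 adipocyte markers tested 3 rose (0.308 to 16.1 CPM in sham P36 and 0.133 to 110 in SG P36, against 0.378 to 7.52 in sham P7, where 4 of the 6 listed were below 0.1 CPM in all libraries, and 0.121 to 6.74 in SG P7). Their part in the slopes was not tested.

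The slope of Akr1b8 (0.21 ± 0.08, adjusted p = 0.0353) turned to -0.031 (adjusted p = 0.733) without SG P36 library 1, and its call was also lost without SG P7 library 4, with voom and without the filter. Without SG P7 library 7 the slopes were 1.08 for Gsta1, 0.58 for Gsta2 and 0.33 for Gsta4. The call of Gsta2 was lost without sham P36 library 2 (0.31, adjusted p = 0.066), that of Srxn1 without sham P36 library 6, and that of Nfe2l2 without sham P36 library 1 or 6 or SG P36 library 1. In single steps, P36 against P21 in sham mice passed for 0 members, where only 0.087% of all genes passed. DESeq2 called 37 genes there, 1 of them a member, and voom 4, with 0 members. An unadjusted edgeR p below 0.05 was found for 6 members and for 1461 of all 16087 genes. The values there were 2.38 ± 0.71 for Gsta1 (adjusted p = 0.219) and 2.17 ± 0.52 for Gsta2 (adjusted p = 0.0993). In sham P7 against sham P36 the 3 members called, all lower, were the alpha-class ones, where 8.19% of all genes were lower. Of the SG comparisons, P7 against P21 passed for 0 members, where 9.7% of all genes passed. DESeq2 called 1817 genes there and voom 1426, with 0 members among them. At an unadjusted edgeR p below 0.05 there were 3 members and 3979 of all 16087 genes. SG P7 against SG P36 passed for 4 (Nfe2l2 and Srxn1 higher, Gsta1 and Akr1b8 lower), where 18.8% passed and 5 of 6 erythroid markers were lower. Each of these 4 calls was lost without SG P36 library 1 or, for Srxn1, without SG P7 library 7 (0.53, adjusted p = 0.0545). Without sham WD library 3 and SG P7 library 7 together 5 of the 10 passed, and 3623 of all genes, against 3026 with all libraries. When SG P36 library 1 was left out too, 5 members and 3200 of all genes passed. SG P21 against SG WD passed for 2 (Gsta1 and Gstm3, both lower), where 29.5% passed.

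**Figure D5:**
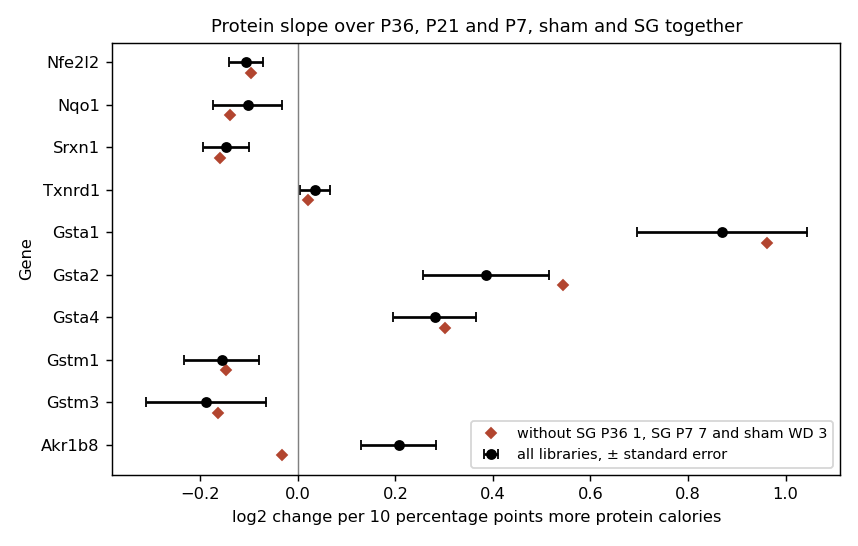
Slope of each of the 10 genes, as log2 change per 10 percentage points more protein calories, over P36, P21 and P7 in sham and SG mice together; black circles with bars are the slope ± SE with all libraries, and red diamonds the slope without SG P36 library 1, SG P7 library 7 and sham WD library 3. Gsta1, Gsta2 and Gsta4 lie to the right of 0, Nfe2l2 and Srxn1 to the left, and Akr1b8 moves from 0.21 to -0.033.

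Within groups the transferases varied together. Over 56 libraries, with the group means taken out, Pearson's r of log2 CPM was 0.90 between Gsta2 and Gsta4, 0.88 between Gstm1 and Gsta2, 0.86 between Gstm1 and Gsta4, 0.86 between Gstm3 and Gsta1, and 0.81 between Gsta1 and Gsta2. For the other pairs of transferases r was 0.85 between Gstm1 and Gsta1, 0.79 between Gstm3 and Gstm1, and 0.72 between Gsta4 and Gsta1. Gstm3 had 0.71 with Gsta2 and 0.67 with Gsta4. The pairs share their libraries and their scaling, and are given as a description with no test. Txnrd1 had -0.04 with Nfe2l2, 0.25 with Nqo1 and 0.52 with Srxn1. Nfe2l2 itself had 0.54 with Nqo1, 0.35 with Srxn1 and 0.61 with Gstm3. Without sham WD library 3, SG P7 library 7 and SG P36 library 1 (53 libraries) r was 0.89, 0.88, 0.84, 0.82 and 0.78 for the 5 pairs of transferases named first, in that order. It was 0.15 between Txnrd1 and Nfe2l2.

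Outside the 10 genes the profile most like that of Gsta2 and of Gsta4 over all 56 libraries was Cryl1, a lambda-crystallin homologue (r = 0.80 with each). Those most like Gstm1 were Ephx1, the microsomal epoxide hydrolase (0.79), Mgst3 (0.77) and Cyp3a11 (0.76), and the one most like Gstm3 was its neighbour in the family Gstm2 (0.81). The nearest to Txnrd1 was Ptpn11 (0.83), to Srxn1 Prune1 (0.82), to Nqo1 Tax1bp3 (0.77) and to Nfe2l2 Plscr4 (0.75). These are correlations with no test, and the groups' own differences enter them.

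Between sham P21 and sham WD, 13 of 36 other NRF2 targets were lower on P21 and 0 were higher, where 17.8% of all genes were lower and 14.4% higher, with a median log2 fold change of -0.34. They included Gpx4, the peroxidase of lipid hydroperoxides (-1.30 ± 0.15, adjusted p = 1.53e-08), the carbonyl reductase Cbr3 (-3.18 ± 0.43, adjusted p = 1.84e-07), and Tkt and Taldo1 of the pentose phosphate pathway (-0.64 ± 0.13 and -0.65 ± 0.13). Hmox1 was lower as well (-1.63, adjusted p = 0.00622). Gclc and Gclm, the subunits of the enzyme that limits glutathione synthesis, averaged 252 ± 62.9 and 197 ± 22.1 CPM (SD, n = 7) in sham P21 and 267 ± 50.8 and 189 ± 27.8 (n = 8) in sham WD. Of 23 other glutathione transferases tested 5 were lower and 1 was higher, the last being Gsta3 (0.49 ± 0.17, adjusted p = 0.0225), while Gstm2 was lower (-1.19 ± 0.24, adjusted p = 0.000142).

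In the same comparison 7 of 21 genes of glutathione synthesis and recycling were lower and 4 higher, 5 of 17 of the thioredoxin and peroxiredoxin system were lower and 5 higher, and 4 of 14 other aldo-keto reductases were lower and 4 higher. These counts stand beside the same 17.8% and 14.4% of all genes. Among 12 regulators of NRF2 the small MAF genes Mafk (-0.71 ± 0.14, adjusted p = 0.000115) and Maff (-1.11 ± 0.38, adjusted p = 0.0226) were lower and Btrc was higher. Keap1 averaged 63.9 ± 10.8 CPM (SD, n = 7) in sham P21 and 53.9 ± 12.7 (n = 8) in sham WD (0.25 ± 0.12, adjusted p = 0.126). Of 19 targets of CAR and PXR tested 5 were lower and 0 higher. The lists share some genes, Gpx4 and the Gcl subunits among them.

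Sham WD against sham chow had no common direction in the lists. Of the 36 other NRF2 targets 11 were higher and 5 lower, where 17.1% of all genes were higher and 14.5% lower, with Cbr3 higher (2.04 ± 0.48) and the carboxylesterase Ces2a lower (-1.92 ± 0.31). Gstp1, the pi-class transferase, averaged 516 ± 136 CPM (SD, n = 8) in sham WD and 1610 ± 473 (n = 4) in sham chow, and was lower on WD (-1.64 ± 0.26, adjusted p = 5.03e-06). Cyp2b10, the marker of CAR activity, averaged 0.896 ± 0.799 CPM (n = 8) in sham WD and 18.2 ± 5.86 (n = 4) in sham chow (-4.32 ± 0.91, adjusted p = 0.000229), as the lowest of 6 CAR and PXR targets that were lower, while 1 was higher. Gsta2, Gsta4 and Gstm1 had their highest group means in the same chow libraries, and a link of these genes to Cyp2b10 was not tested. All 6 macrophage markers were higher in sham WD, with a summed level of 125 to 381 CPM against 52.7 to 68.8. Their part in these fold changes was not tested.

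In sham P7 against sham P21, 4 of 12 regulators were higher and 0 lower, where 13% of all genes were higher and 13.4% lower, led by Sqstm1, which encodes the p62 protein that competes with NRF2 for KEAP1 (1.19 ± 0.15, adjusted p = 9.94e-08), with Mafk, Mafg and Nfe2l1. Sqstm1 averaged 879 ± 166 CPM (SD, n = 7) in sham P7 and 386 ± 24.5 (n = 7) in sham P21. Of the 36 other targets 5 were higher and 2 lower, among them Htatip2 (1.48 ± 0.16, adjusted p = 7.59e-10) and the cystine carrier Slc7a11 (2.43 ± 0.78, adjusted p = 0.0164), whose mean was 0.551 CPM in sham P7 and 0.10 in sham P21. Of the other transferases 7 were higher and 3 lower. Several mu-class genes were higher, such as Gstm5 (0.98 ± 0.16, adjusted p = 1.11e-05) and Gstm2 (0.81 ± 0.24, adjusted p = 0.0103), and Gsta3 was lower (-0.63 ± 0.18, adjusted p = 0.00624). Gsta3 averaged 903 ± 195 CPM (n = 7) in sham P7 and 1398 ± 301 (n = 7) in sham P21.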

How the data were processed

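Liver RNA of 57 of 62 labelled mice was analysed, from stranded libraries of poly(A) RNA, per the labels' protocols. The other 5 were not analysed here. The authors deposited expected counts per gene (3.34% of values not whole), which were rounded here, on GRCm39 per the submitters' processing notes. The authors also deposited a table of log2 fold changes with p-values, for surgery within each of the P36, P21 and P7 diets, which is quoted only where named. Its F values, a score from an empirical Bayes test as deposited per the file headers, were not used. Symbols came from that table (15523 IDs) or a GRCm38 annotation (36760), and 4601 IDs had none. No coordinates are given for counted genes, and promoter windows are from RefSeq on GRCm38.p6.

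Genes were filtered by group (filterByExpr), scaled by TMM and fitted together over 9 groups and 56 libraries with edgeR 4.0.16 in R 4.3.3 (quasi-likelihood test, two-sided, 47 residual degrees of freedom, biological coefficient of variation 28.2%). P-values were adjusted by Benjamini-Hochberg over 16087 genes, with a threshold of 0.05, and SG chow (1 library) was left out. Log2 CPM used a prior count of 2. Alternatives were RLE scaling, no filter, limma-voom (limma 3.58.1), DESeq2 1.42.0, the compared groups alone, each library left out in turn and, added after seeing the data, 3 sets of libraries that stand apart (1 of them also for the correlations between members). The fit was tested on simulated data. Depth was 6993848 to 34008320 counts per library. The members and gene lists were chosen with earlier results of these data known, and fewer libraries entered than the design had assumed. The genes named from other lists are those with the lowest adjusted p of their list and a few fixed by name. Genes named outside these were chosen after their values were seen. Replicates are separate mice per the labels.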

Additional observations from a re-analysis of the deposited data

Results flagged for a closer look

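Of 90 combinations of a member and a group of 4 to 8 libraries, 7 had a library far from the others by Dixon's criterion, where chance gives about 1 in 20. Library 7 of SG P7 accounted for 4 of them, with 15.45 CPM of Gsta1, 106.3 of Gsta2, 2419 of Gstm1 and 99.05 of Gstm3, each the highest of its group. That library lay nearest the sham chow mean, and whether its label is right was not tested. Library 1 of SG P36 had 19.95 CPM of Akr1b8, library 2 of sham P36 had 128.6 CPM of Nfe2l2, and library 2 of SG P21 had 8.263 CPM of Gsta1.

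The SG effect on Akr1b8 differed between the diets by a test of the difference itself. The F test over P36, P21 and P7 gave an edgeR adjusted p of 0.02962. The effect on P7 minus that on P36 was -2.037 on the log2 scale, and this call was lost in 18 of 30 alternatives. Without SG P36 library 1 neither passed (adjusted p = 0.414 and 0.526).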

How the results depend on the processing

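Of 36 member calls 14 held under every alternative run, and of 144 values that did not pass 24 passed under at least 1. RLE scaling changed none of the 180, and moved the median of all genes by at most 0.023. The counts of all genes called that moved by over 1.5 times were as follows, and the cause was not tested. With RLE the SG effect on P21 against WD gave 36 genes (20 in the report). Without the filter SG on P21 gave 868, SG P7 against SG P21 1021, the F test of the SG effect 59, the SG effect on P7 against P36 13 and that on P21 against WD 3. With voom SG on WD gave 100, SG on P7 1, sham P36 against P21 4, the mean SG effect 395, the F test 99, and the differences of SG effects 10 and 9. With DESeq2 SG on P7 gave 7, sham P36 against P21 37, the F test 495, and the differences 91 and 141. With the compared groups alone SG on WD gave 2, SG on P36 104, SG on P21 2354, sham P36 against P21 62, the F test 365, and the SG effect on P7 against P36 3. Without sham WD 3 and SG P7 7 the mean SG effect gave 1120, the F test 139 and the SG effect on P21 against WD 276, the last 324 when SG P36 1 was left out too. Without SG WD 5 and 7 SG on WD gave 66 and the SG effect on P21 against WD 101. Of the genes called for SG on WD 80.3% were higher, and 49% with voom.

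Leaving out each library in turn gave 167 to 522 genes for SG on WD, 169 to 561 on P36, 966 to 1438 on P21 and 0 to 1 on P7, 428 to 1015 for the mean SG effect, 4 to 24 for sham P36 against P21, 32 to 512 for the F test, 6 to 115 and 0 to 173 for the SG effects on P7 against P36 and on P21 against WD, 643 to 1378 for SG P36 against SG P21, and 944 to 1637 for SG P7 against SG P21. The slope of Akr1b8 ran from -0.031 to 0.26, with -0.031 without SG P36 1 and -0.033 without that library, sham WD 3 and SG P7 7. The log2 fold change of Cyp2b10 in SG P7 against SG P21 was 3.58 with all libraries. It ran from -0.19, without SG P7 7, to 4.31, and was -0.18 in both sets that leave SG P7 7 out. No paired analysis was possible because replicate numbers follow accession order and pair no mice.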
